A study of Mus musculus with 6 samples.

Results

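A set of 7 genes that carry or answer the hepatic fasting signal were followed in livers of wild-type (WT) mice and of mice lacking Gα12 (Gα12 KO), the alpha subunit of a heterotrimeric G protein. They are Fgf21, Klb, Fgfr4, Angptl4, Angptl8, Pdk4 and Pdk2, chosen by name with earlier results of these data known. Their array features (probes) were found through the RefSeq accession that each feature carries. These 7 genes were 7 of 20284 named genes on the array and had 8 of its 55681 features, 2 of them for Fgfr4 and 1 for each other gene. All 7 genes passed the filter, each through 1 feature; the dimmer Fgfr4 feature did not, because its spot on 1 array was marked as an outlier and it had no value on all 6 arrays. The data came from 6 one-colour arrays of whole-liver RNA, 3 per genotype. All mice were males 8 weeks old, fed chow and fasted overnight, on a background given as 95% C57BL/6, with the strain written as C57BL/6 and 129/Sv. The labels do not say how Gα12 was removed, so the allele, and whether it was absent from the liver alone, is not known here. The labels give 3 mice per genotype, and each array was taken as 1 mouse.

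FGF21 is a hormone that the liver releases in fasting, and PPARα, a nuclear receptor for fatty acids, drives its gene there. It signals through an FGF receptor paired with β-Klotho, the product of Klb. FGFR4 is the main FGF receptor of hepatocytes and, with β-Klotho, receives the gut hormone FGF15, which lowers bile acid synthesis. ANGPTL4 and ANGPTL8 are secreted regulators of lipoprotein lipase: Angptl4 is induced by fasting, and Angptl8 is induced by feeding and insulin. PDK4 and PDK2 are kinases that switch off the pyruvate dehydrogenase complex and so spare glucose. Pdk4 is strongly induced by fasting, and PDK2 is the more constant liver form.

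The promoters of Fgf21, Angptl8, Klb and Pdk4 are shown because these were the 4 members with the lowest KO minus WT differences. Each is the 250 bases before the gene's start in RefSeq (GRCm38.p6), printed 5′ to 3′ on the gene's strand. They lie at chr7:45615491-45615740 (minus strand) for Fgf21, chr9:21835260-21835509 (plus strand) for Angptl8, chr5:65348161-65348410 (plus strand) for Klb and chr6:5496279-5496528 (minus strand) for Pdk4. RefSeq promoter entries were matched for 6 of the 7 genes, all but Angptl4. Capitals mark matches, on either strand, to the motifs described after them, and no matches overlapped.
Fgf21: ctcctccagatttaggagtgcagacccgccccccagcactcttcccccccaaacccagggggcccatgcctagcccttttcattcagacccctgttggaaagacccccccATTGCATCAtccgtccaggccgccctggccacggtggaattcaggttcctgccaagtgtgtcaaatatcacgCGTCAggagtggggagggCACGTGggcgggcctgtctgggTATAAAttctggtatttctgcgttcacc
Angptl8: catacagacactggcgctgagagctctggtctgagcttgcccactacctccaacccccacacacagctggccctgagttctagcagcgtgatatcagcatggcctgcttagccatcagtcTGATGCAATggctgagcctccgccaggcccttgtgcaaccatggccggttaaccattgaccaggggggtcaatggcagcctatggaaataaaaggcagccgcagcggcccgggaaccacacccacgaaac
Klb: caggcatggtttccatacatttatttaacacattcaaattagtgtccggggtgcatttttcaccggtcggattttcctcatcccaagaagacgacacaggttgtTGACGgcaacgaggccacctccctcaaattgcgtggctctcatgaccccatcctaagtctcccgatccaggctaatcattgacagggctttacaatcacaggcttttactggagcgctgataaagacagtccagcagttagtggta
Pdk4: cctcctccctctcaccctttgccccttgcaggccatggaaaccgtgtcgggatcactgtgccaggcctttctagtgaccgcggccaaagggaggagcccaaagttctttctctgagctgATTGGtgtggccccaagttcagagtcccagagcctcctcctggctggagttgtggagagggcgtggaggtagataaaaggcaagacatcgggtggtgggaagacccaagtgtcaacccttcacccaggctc
The Fgf21 and Angptl8 windows both held TGATGCAAT, a C/EBP-ATF composite element that ATF4 can bind. In Fgf21 it ran from position -140 to -132 on the reverse strand, and in Angptl8 from -130 to -122 on the forward strand, counted back from the start. Of 32851 RefSeq windows of the same length, 55 (0.167%) held it; this motif was chosen after these promoters had been read. Fgf21 also held TATAAA (-28 to -23), present in 12.4% of windows, and CACGTG, the E-box that ChREBP and USF proteins bind (-50 to -45), present in 6.02%. TGACG, the core of the cAMP response element, was found in Fgf21 (-68 to -64, reverse strand) and Klb (-146 to -142), and in 17.8% of all windows. The Pdk4 window held CCAAT on the reverse strand (-131 to -127), found in 33.8% of windows. A window of Pdk2, not printed here, held CCAAT as well (-105 to -101, -73 to -69 and -42 to -38, reverse strand). It also held CACGTG (-126 to -121). AGGTCA, the core bound by nuclear receptors such as PPARα (14% of windows), and TGTTTAC, a FOXO motif (3.17%), were in none of the 6 members' windows. A match describes the letters of the window and not a bound site.

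Levels are log2 signal relative to the 75th percentile of each array, so a level of 0 equals that percentile, and differences are KO minus WT on this log2 scale. A level can be compared between arrays for 1 feature, not between features. The p-values come from limma, a linear model fitted to all 23132 features past the filter, with Benjamini-Hochberg adjustment over all of them. With the adjusted p, 0 of the 7 genes passed 0.05, and neither did any other feature (0% of 23132). At an unadjusted p below 0.05, 4 of the 7 (Fgf21, Klb, Angptl8 and Pdk4) were lower in the knockout and 0 higher, against 16.6% of 12297 measured genes lower and 3.98% higher. Klb and Angptl8 kept an unadjusted p below 0.05 in all 17 alternative settings, Pdk4 in 13 of 17 and Fgf21 in 10 of the 16 that gave it a value. Only 2 of the 7 remained without WT replicate 2 or with the spread of the Gapdh features as a covariate. Of all 12297 measured genes, 581 and 824 were lower at that threshold in these 2 settings, against 2038 in the main fit. Every liver of one genotype lay above every liver of the other for 5 of the 7, always with WT higher, against 21.1% of all genes. The median difference was -1.28 for the 7 genes and -0.49 for all measured genes.

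Several facts about the arrays touch every value that follows. WT replicate 3 resembled the knockouts (r = 0.966 to 0.982 over features) more than WT replicates 1 and 2 did (0.869 to 0.930). The 7 Gapdh features, which report on a single transcript, differed by 9.58 and 7.79 log2 units on WT replicates 1 and 2, by 4.01 on WT replicate 3 and by 4.36 to 4.87 on the knockouts. Their part in the results was not tested beyond the fit with that spread as a covariate. All 6 arrays shared 1 slide and 1 scan, with WT in row 1 and the knockouts in row 2: the effect of the row and that of the genotype cannot be told apart. Spots marked as nonuniform numbered 2 to 6 on the WT arrays and 90 to 152 on the knockouts. The scanner software's estimate of background error was 5.97 to 8.60 in WT and 10.5 to 13.3 in the knockout, highest on knockout replicate 3. The part of these 2 measures in the results was not tested. The Gna12 feature stood well above background on WT replicate 3 only, with levels of -3.48, -4.55 and -0.89 in WT and -4.91, -4.62 and -3.47 in the knockout, and it gave no check of the other labels. Without WT replicate 3, 56.7% of features passed the adjusted threshold, so calls made without that array carry little about any single gene.

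**Figure D1:**
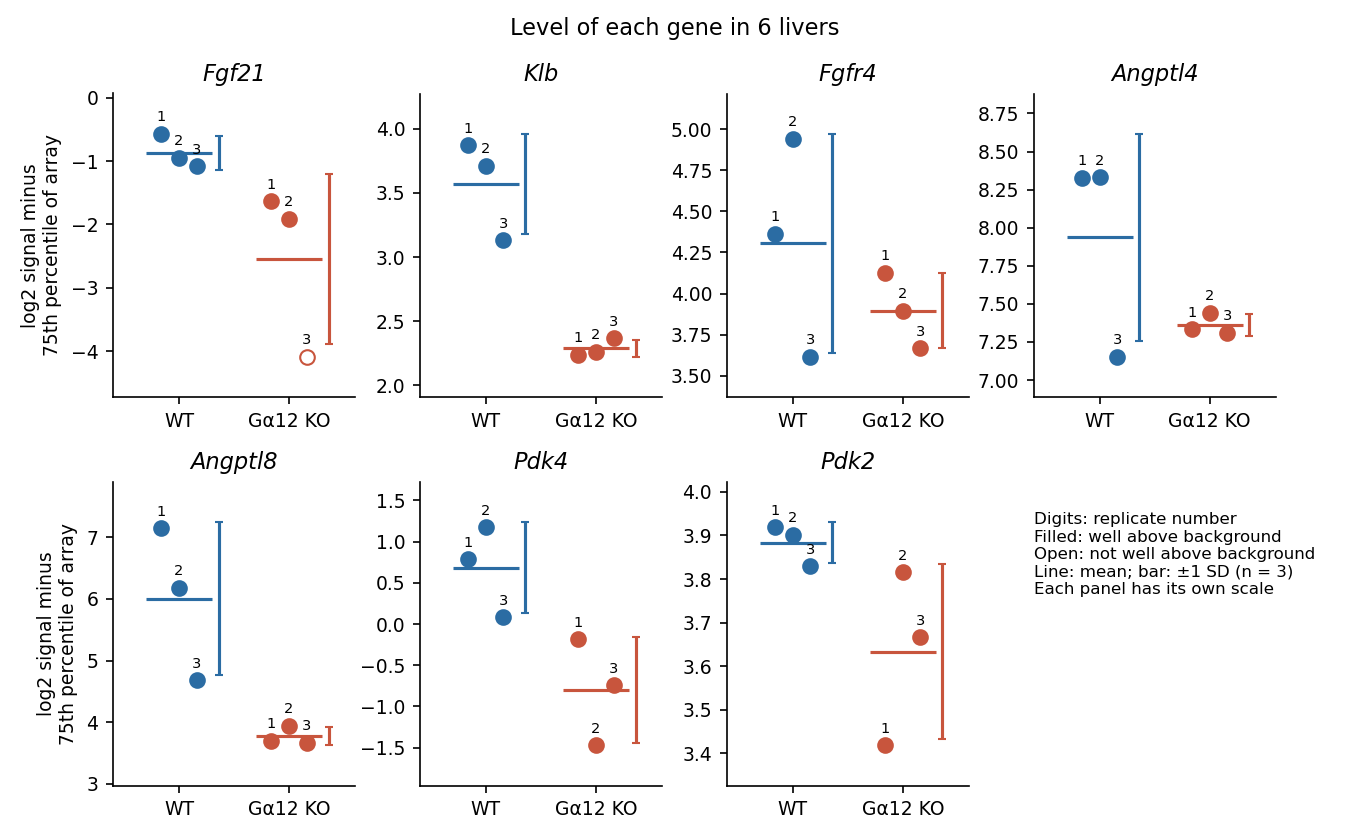
Levels (log2 signal relative to the array's 75th percentile) of the 7 genes in each of the 6 livers, with group means as horizontal lines and bars of 1 SD either side of the mean (n = 3 per genotype); open circles are not well above background, and each panel has its own scale. All 3 WT livers lie above all 3 knockout livers for Fgf21, Klb, Angptl8, Pdk4 and Pdk2, and WT replicate 3 lies below the knockouts for Fgfr4 and Angptl4.

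Fgf21, the hormone itself, was lower in the knockout livers, but the size rested on a single knockout. Its levels were -0.57, -0.94 and -1.08 in WT replicates 1 to 3 and -1.63, -1.91 and -4.09 in knockout replicates 1 to 3. The groups did not overlap, and the lowest WT liver was 0.55 above the highest knockout; knockout replicate 3 was not well above background and stood far below the other 5 livers. WT averaged -0.86 ± 0.27 and the knockout averaged -2.54 ± 1.35 (SD, n = 3 each). The difference was -1.68 (SE 0.64, 95% interval -3.17 to -0.19; limma adjusted p = 0.235). Because knockout replicate 3 was not well above background, the matching fold is rough: 3.20 with it and 1.87 without it. Without knockout replicate 3 the difference was -0.91. With a background correction by normexp and an added offset of 50, which compresses dim signals, it was -0.82. A lower difference was seen in 2.34% of measured genes.

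Klb, which encodes the co-receptor that FGF21 and FGF15 share, was lower in every knockout liver. Its levels were 3.87, 3.71 and 3.13 in WT and 2.24, 2.26 and 2.37 in the knockout. The knockouts were tightly grouped, and each WT liver lay above them, with signals 3.00, 2.68 and 1.80 times the knockout mean. WT averaged 3.57 ± 0.39 and the knockout averaged 2.29 ± 0.07 (SD, n = 3 each). The difference was -1.28 (SE 0.33, 95% interval -2.05 to -0.52; limma adjusted p = 0.235), and 8.43% of measured genes had a lower one. Without WT replicate 3 it was -1.50, with an adjusted p of 0.0048.

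Fgfr4, the receptor that pairs with β-Klotho in hepatocytes, showed no difference larger than its spread. Its brighter feature read 4.36, 4.94 and 3.61 in WT and 4.13, 3.90 and 3.67 in the knockout. WT replicate 3 was the lowest of all 6 livers, so the groups overlapped. WT averaged 4.31 ± 0.67 and the knockout averaged 3.90 ± 0.23 (SD, n = 3 each), and the difference of -0.41 (SE 0.41, 95% interval -1.36 to 0.54; limma adjusted p = 0.490) left room for either direction. Its sign turned under quantile normalisation (0.054), with the Gapdh spread as a covariate (0.012) and against WT replicate 3 alone (0.28).

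The dimmer Fgfr4 feature went the other way. It read -3.71, -1.15 and 0.84 in WT, the first of these not well above background, and 0.71 and 0.53 in knockout replicates 1 and 2. The scanner software marked the spot of knockout replicate 3 as an outlier, at 3.51, and that value was left out of the fit. The difference was 1.96 (SE 1.21, 95% interval -0.98 to 4.90; limma adjusted p = 0.295 in a fit without the filter). The 2 features of Fgfr4 therefore differed in sign, and neither passed the test. WT replicates 1 and 2, the arrays with the widest Gapdh spread, were the highest on the brighter feature and the lowest on the dimmer; the part of that spread in the dimmer feature was not tested.

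**Figure D2:**
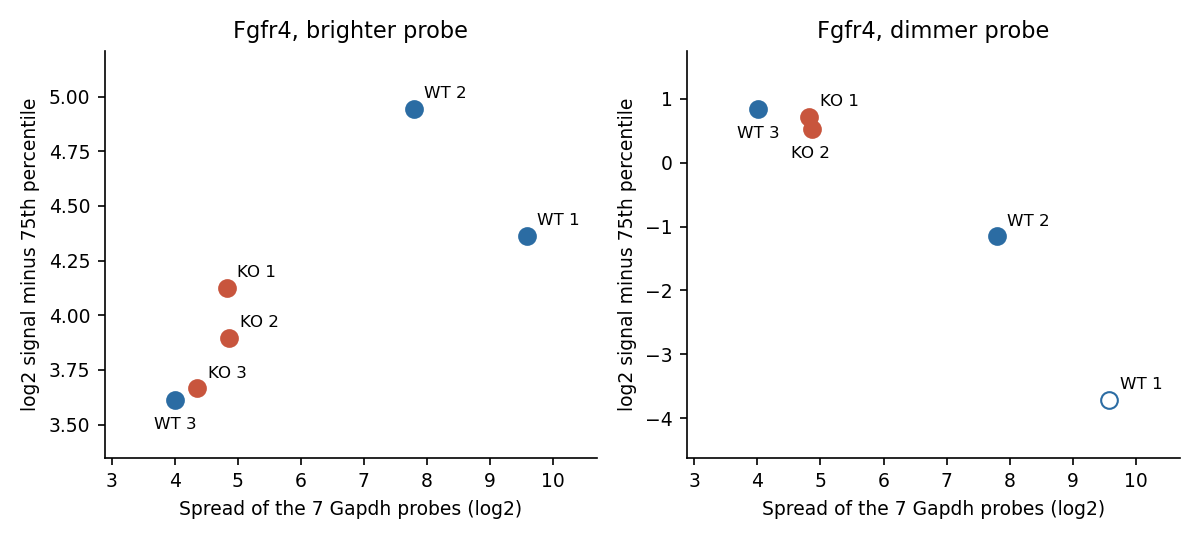
Level of the brighter (left) and the dimmer (right) Fgfr4 feature (log2 signal relative to the array's 75th percentile) against the spread of the 7 Gapdh features on the same array (log2), 1 point per liver; an open circle is not well above background, and the outlier-marked spot of knockout replicate 3 is not drawn. WT replicates 1 and 2, with spreads of 9.58 and 7.79, have the highest values on the brighter feature and the lowest on the dimmer.

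Angptl8, the feeding-induced member, had the lowest difference of the 7. Its levels were 7.15, 6.18 and 4.68 in WT and 3.70, 3.94 and 3.67 in the knockout. The WT livers were spread widely and the knockouts closely grouped, with the WT signals 10.4, 5.30 and 1.88 times the knockout mean. WT averaged 6.00 ± 1.24 and the knockout averaged 3.77 ± 0.15 (SD, n = 3 each). The difference was -2.23 (SE 0.60, 95% interval -3.62 to -0.85; limma adjusted p = 0.235), or 4.70 times the signal in WT, and 0.561% of measured genes had a lower one. It was -0.91 against WT replicate 3 alone, -1.17 with the Gapdh spread as a covariate, and -2.89 without WT replicate 3 (adjusted p = 0.0047).

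Angptl4, the fasting-induced inhibitor of lipoprotein lipase, did not separate the genotypes. It read 8.33, 8.33 and 7.15 in WT and 7.33, 7.44 and 7.31 in the knockout. WT replicates 1 and 2 were about equal and higher than the rest, and WT replicate 3 was the lowest of the 6. WT averaged 7.94 ± 0.68 and the knockout averaged 7.36 ± 0.07 (SD, n = 3 each), a difference of -0.58 (SE 0.40, 95% interval -1.51 to 0.36; limma adjusted p = 0.346). A lower difference was seen in 44.9% of measured genes, near the middle of the array. Without WT replicate 3 the difference was -0.97 (adjusted p = 0.0090), and against WT replicate 3 alone it was 0.21.

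Pdk4, the fasting-induced kinase, was lower in the knockout livers. Its levels were 0.79, 1.18 and 0.08 in WT and -0.18, -1.47 and -0.74 in the knockout. The groups did not overlap, with a gap of 0.27 between WT replicate 3 and knockout replicate 1. WT averaged 0.68 ± 0.55 and the knockout averaged -0.80 ± 0.65 (SD, n = 3 each). The difference was -1.48 (SE 0.46, 95% interval -2.54 to -0.42; limma adjusted p = 0.235), or 2.79 times the signal in WT, and 4.66% of measured genes had a lower one. Without WT replicate 3 it was -1.78 (adjusted p = 0.0161).

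Pdk2, the more constant liver kinase, differed little. It read 3.92, 3.90 and 3.83 in WT and 3.42, 3.82 and 3.67 in the knockout. The lowest WT liver exceeded the highest knockout by 0.0148, less than the SD within either group. WT averaged 3.88 ± 0.05 and the knockout averaged 3.63 ± 0.20 (SD, n = 3 each), and the difference was -0.25 (SE 0.30, 95% interval -0.94 to 0.44; limma adjusted p = 0.560). It turned to 0.19 under quantile normalisation.

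**Figure D3:**
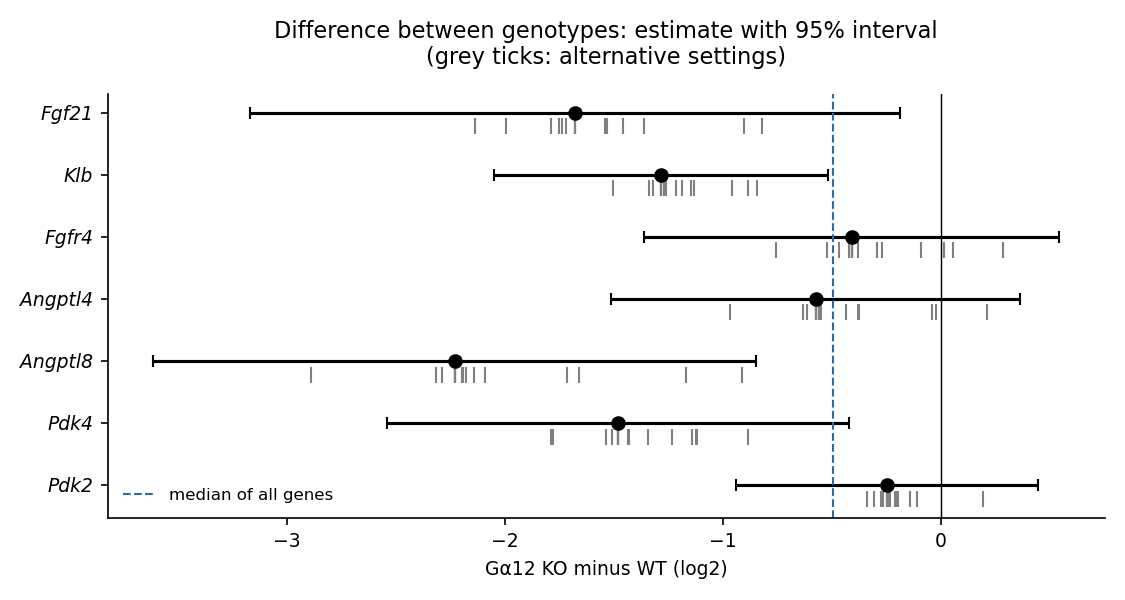
KO minus WT difference (log2) of each gene with its 95% interval from limma; small ticks are the values under the alternative settings and the dashed line is the median of all measured genes, -0.49. The intervals of Fgf21, Klb, Angptl8 and Pdk4 lie below 0, and those of Fgfr4, Angptl4 and Pdk2 span it.

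Because WT replicate 3 stood with the knockouts over the array as a whole, each WT liver was also set against the knockout mean by itself. Over all measured genes the median of WT replicate 1 minus the knockout mean was 0.82, that of WT replicate 2 was 0.71, and that of WT replicate 3 was 0.03. For the 7 genes the median in WT replicate 3 was 0.84. WT replicate 3 exceeded all 3 knockouts for Fgf21, Klb, Angptl8, Pdk4 and Pdk2, 5 of the 7, against 32.6% of all measured genes. Its signal over the knockout mean was 2.75-fold for Fgf21, 1.80-fold for Klb, 1.88-fold for Angptl8 and 1.85-fold for Pdk4; these single-liver values have no test. The value for Fgf21 rests on knockout replicate 3, and against knockout replicates 1 and 2 it was 1.61-fold.

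**Figure D4:**
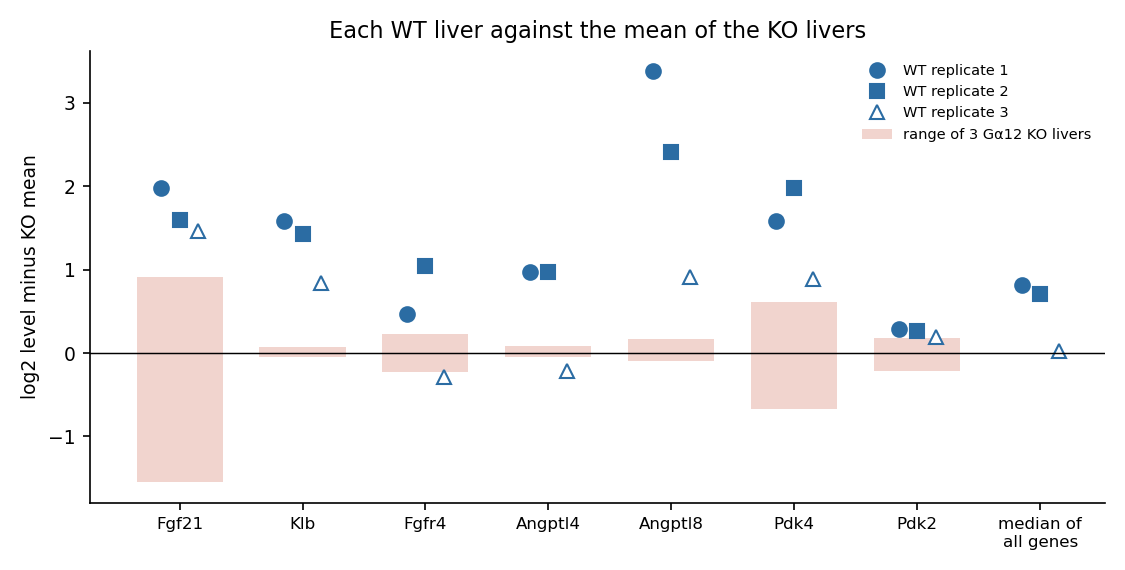
Each WT liver minus the mean of the 3 knockout livers (log2), by gene, with the median of all measured genes (0.82, 0.71 and 0.03 for WT replicates 1, 2 and 3) for comparison; shaded bars span the 3 knockout livers. For WT replicate 3, Fgf21, Klb, Angptl8 and Pdk4 lie between 0.84 and 1.46, and Fgfr4 and Angptl4 lie below 0.

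A ratio of 2 features within an array does not change when the whole array is scaled by 1 factor, so functional partners were compared that way. Angptl8 relative to Angptl4 was 1.66 lower on the log2 scale in the knockout, a 3.15-fold change of the ratio, and the groups did not overlap. An exact two-sided permutation test over the 20 splits of the livers gave p = 0.10, the smallest that 3 against 3 can give, and 0.15 after adjustment over the 3 ratios compared. Klb relative to Fgfr4 (brighter feature) was lower by 1.83-fold without overlap (exact permutation p = 0.10, adjusted 0.15). Pdk4 relative to Pdk2 was lower by 2.35-fold, but the groups overlapped (exact permutation p = 0.20, adjusted 0.20). Corrections that act unevenly over the range of signal moved that last ratio most, to 3.08-fold under quantile normalisation and 1.88-fold with normexp, against 3.20-fold and 3.099-fold for Angptl8 over Angptl4 and 1.92-fold and 1.70-fold for Klb over Fgfr4. Against WT replicate 3 alone, these log2 ratios differed from the knockout mean by 1.12, 1.13 and 0.69. Such a ratio shows unequal change between partners, not which partner changed, and no ratio could reach 0.05 in this design.

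Across the 6 arrays the members' levels correlated positively in every pair, from 0.313 (Fgfr4 with Pdk2) to 0.964 (Klb with Angptl8). Angptl4 and Angptl8 correlated at 0.898 and Klb and Pdk4 at 0.883, while Fgf21 correlated at 0.433 to 0.699 and Pdk2 at 0.313 to 0.746 with the others. These are descriptions over 6 points that share the array scaling and the genotype difference. Among 10382 other genes above background on all arrays (10383 for Fgf21), the pattern of Fgf21 was most like that of Pik3c2g (r = 0.997), Gm10639 (0.986) and Crot (0.977), the last a peroxisomal carnitine acyltransferase. Pik3c2g, a class II phosphoinositide kinase of liver, read 1.92, 1.53 and 1.33 in WT and 0.85, 0.79 and -0.99 in the knockout. Like Fgf21 it was lowest in knockout replicate 3. Fgf21 was not well above background on that array, and the r values for Fgf21 include that dim value. For Klb the most alike were Tor4a, Cdip1 and Rpp40 (0.996 to 0.998), for Fgfr4 Rbm22, Brd2 and Adra2b (0.993 to 0.998), and for Angptl8 Ncmap, Hid1 and Kank1 (all above 0.998). Hmg20b, Ltbr and C77080 were most like Angptl4, Pnp, Tonsl and Polr3f (0.990 to 0.994) most like Pdk4, and Rell2, Cyth1 and Bhlhe40 (0.970 to 0.972) most like Pdk2. An r above 0.9 was reached by 4462 genes for Angptl4, 3896 for Angptl8, 2112 for Klb, 749 for Fgfr4 and 512 for Pdk4, against 45 for Fgf21 and 28 for Pdk2. The patterns of Angptl4, Angptl8 and Klb were thus shared with the most genes.

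Genes around the members were read from 7 lists, members left out; no gene of any list passed the adjusted threshold, and the counts given are at an unadjusted p below 0.05, to be read against 16.6% lower, 3.98% higher and a median of -0.49 over all genes. Of 39 measured PPARα targets, 6 were lower (15.4%) and 1 higher, with a median difference of -0.36, so the list as a whole was no lower than the array. The lower ones included the acyl-CoA thioesterases Acot4 (-1.42, SE 0.29), Acot3 (-1.64, SE 0.38) and Acot1 (-1.36, SE 0.46) and the peroxisomal thiolase Acaa1b (-1.14, SE 0.39). Cpt1a, which admits fatty acids to mitochondria, differed by 0.42 (SE 0.34). Acot4 read 1.32, 1.23 and 1.19 in WT and -0.18, -0.12 and -0.22 in the knockout, and both groups were narrow. Cyp4a14, a classical PPARα target, read 2.02, 3.35 and 3.00 in WT and 2.68, 1.26 and -0.74 in the knockout, and like Fgf21 was lowest in knockout replicate 3.

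Among 37 measured upstream regulators of the fasting signals, 8 were lower (21.6%) and 2 higher (5.41%), with a median of -0.56, near that of all genes. Ppara itself read 5.31, 5.11 and 5.39 in WT and 4.69, 5.67 and 5.77 in the knockout, differing by 0.11 (SE 0.38) with overlapping groups. The lower genes included the glucocorticoid receptor Nr3c1 (-1.58, SE 0.45), Pparg (-1.35, SE 0.39) and the deacetylase Sirt1 (-1.60, SE 0.54). Creb1, a cAMP-responsive factor, was not well above background on any knockout array and passed the filter through WT alone. Its knockout mean was 3.21-fold lower, a rough value and not a minimum, and its count as lower follows in part from the filter. The 2 higher genes were the lipogenic factor Srebf1 (2.94, SE 1.002) and Cebpb (0.95, SE 0.35), a C/EBP factor of the fasting response. Srebf1 read -3.56, -1.62 and 0.98 in WT and 1.86, 1.23 and 1.54 in the knockout, with 5 of the 6 arrays well above background. Its level in WT replicate 3 minus the knockout mean was -0.56, so most of the difference came from WT replicates 1 and 2. Atf4, which encodes the stress-induced factor noted for the Fgf21 promoter, differed by -1.02 (SE 0.51), and Ddit3, another stress factor, by 0.10 (SE 0.32).

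In FGF receptor signalling, 4 of 31 measured genes were lower (12.9%, below the share over all genes) and 0 higher, with a median of -0.51. Dusp6, a phosphatase induced by ERK signalling that acts as feedback on it, read 4.39, 4.76 and 3.24 in WT and 2.61, 1.97 and 2.59 in the knockout (difference -1.74, SE 0.46). Spred2, another inhibitor of the pathway, differed by -1.40 (SE 0.42). The other 2 passed the filter through WT alone, with no knockout array well above background, so their folds are rough. The exchange factor Sos1 was 3.12-fold and Fap, the protease that inactivates FGF21, 3.14-fold lower. For Fap the groups overlapped, with WT replicate 3 at -3.41 and knockout replicate 3 at -3.08. These folds and that of Creb1 take, on each knockout array, the higher of the gene's own signal and the lowest signal well above background. They are not minimum values. The other receptors differed by -0.25 (Fgfr1, SE 0.48), 0.11 (Fgfr2, SE 0.29) and -0.82 (Fgfr3, SE 0.42). Cyp7a1, the bile acid enzyme that FGF15 represses, differed by -0.34 (SE 0.56).

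Among 23 measured genes of the ANGPTL family and lipoprotein lipase control, 2 were lower (8.70%, against 16.6% of all genes) and 1 higher, with a median of -0.00055. The lower genes included the lipoprotein receptor gene Vldlr (-1.88, SE 0.42). Apoa4, an apolipoprotein, was higher (3.35, SE 1.23), although WT replicate 3, at 1.91, lay among knockouts at 1.76, 2.18 and 1.94. Lpl, the lipase itself, differed by 0.91 (SE 0.51).

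In the list of the pyruvate dehydrogenase complex and its control, 6 of 25 measured genes were lower (24.0%, against 16.6% of all genes) and 0 higher, with a median of -0.63, against -0.49. Pdk1, another kinase of the complex, read 3.11, 2.67 and 2.80 in WT and 2.02, 1.69 and 1.70 in the knockout (-1.06, SE 0.31), and so was lower together with Pdk4 in all 3 knockouts. Both phosphatases that oppose the kinases were lower too, Pdp1 by -1.12 (SE 0.45) and Pdp2 by -0.92 (SE 0.38). The subunit gene Dlat (-1.37, SE 0.49), the lipoyltransferase Lipt1 (-1.18, SE 0.40) and the pyruvate carrier Mpc1 (-0.996, SE 0.37) were also lower. Pdk3 did not pass the filter on dim features.

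The list of insulin and feeding responsive genes had the largest share of lower members among the 7, 8 of 21 measured (38.1%, against 16.6% of all genes) and 0 higher, with a median of -1.15. Ppp1r3g, a feeding-induced glycogen-targeting subunit, read 2.17, 2.80 and 2.44 in WT and 0.29, -0.94 and 0.20 in the knockout, without overlap, and WT replicate 3 lay between the other WT livers. Its difference was -2.62 (SE 0.42; limma adjusted p = 0.158). The others with the lowest p were the elongase Elovl6 (-1.23, SE 0.38), the glycogen-targeting subunit Ppp1r3c (-1.20, SE 0.40) and the fatty acid synthase Fasn (-1.15, SE 0.39). Of 28 measured fasting and glucocorticoid responsive genes, 5 were lower (17.9%, near the share over all genes) and 3 higher (10.71%, against 3.98%), with a median of -0.64. Lpin1 (2.76, SE 0.91) and the tyrosine aminotransferase Tat (1.39, SE 0.46) were higher, and the ketone enzyme Bdh1 (-1.46, SE 0.45) and the mTORC1 inhibitor Ddit4 (-0.94, SE 0.33) were lower. Lpin1 read -1.57, 1.49 and 2.30 in WT and 3.51, 3.76 and 3.22 in the knockout. Against WT replicate 3 alone, list medians of WT minus knockout were 0.29 for the insulin list and 0.23 for the PPARα targets, and between -0.05 and 0.08 for the other 5 lists.

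**Figure D5:**
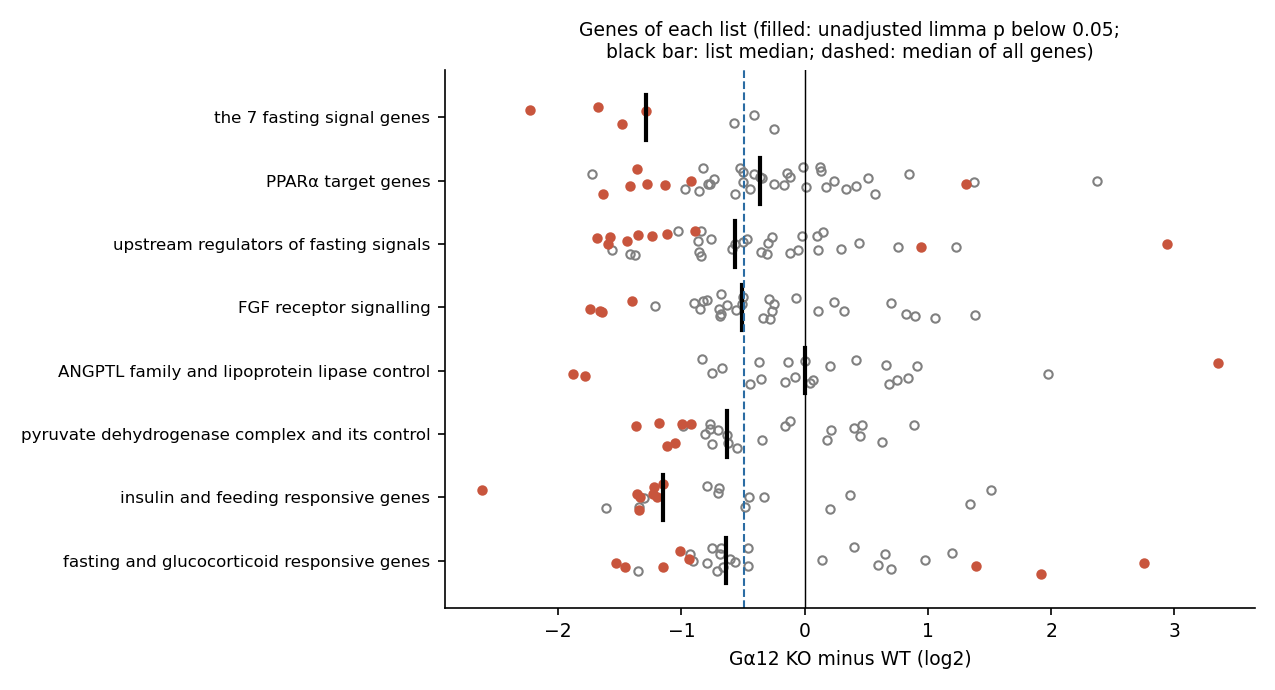
KO minus WT differences (log2) of the measured genes in each list and of the 7 members, 1 point per gene (filled where the unadjusted limma p is below 0.05), with list medians as bars and the median of all measured genes as a dashed line. The members (median -1.28) and the insulin and feeding responsive genes (median -1.15) lie lowest, and the ANGPTL and lipase list lies at 0.

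The tissue label was checked against markers, since in whole liver fewer cells of a type and less RNA per cell cannot be told apart. All 10 hepatocyte markers were above background on every array, with summed linear signals of 5704 to 10439 times the 75th percentile in WT and 6817 to 9097 in the knockout. Adipose tissue and muscle also express several members. Of 7 adipocyte markers, 3 were above background on every array and Lep on none, with sums of 6.25 to 11.0 in WT and 4.79 to 9.22 in the knockout. Of 7 skeletal muscle markers, 1 was above background on every array and Ckm and Mylpf on none, with sums of 1.58 to 3.33 and 1.90 to 5.91. Knockout replicate 3, the liver with the lowest Fgf21, had the highest muscle sum, 5.91 against 1.90 and 2.87 in the other knockouts; its part in the Fgf21 value was not tested. Of 9 lists for other cell types, 8 had sums that overlapped between genotypes, although a sum mostly follows its brightest marker. Single markers of these lists at an unadjusted limma p below 0.05 included the endothelial genes Kdr (2.28, SE 0.67) and Cdh5 (2.40, SE 0.81) and the muscle actin gene Acta1 (2.58, SE 0.76), all higher in the knockout and named after their values were seen. Acta1 read -3.93, -3.22 and -2.67 in WT and -2.45, -0.15 and 0.53 in the knockout. It was well above background on WT replicate 3 and knockout replicates 2 and 3 only, so its difference is rough. The exception among the 9 lists was 7 stellate cell and fibroblast markers, 5 of them above background on every array. Their sums were 87.7 to 149.8 in WT and 66.8 to 79.7 in the knockout, moving in the same direction as the members. Dcn was the brightest of them, with a difference of -0.71 (SE 0.34) against a median of -0.49 over all genes. Of 6 past the filter, 5 had a difference below 0 and Des had one of 1.28 (SE 0.72). The part of this list in the members' differences was not tested.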

How the data were processed

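Liver RNA (0.5 µg) was labelled with Cy3 and hybridised to 6 Agilent arrays. The deposited scanner files hold linear intensity per spot, background-subtracted by Agilent Feature Extraction 10.7.3.1, per the submitters' processing notes and the file headers. A deposited table also holds log2 values, which lie close to the log2 processed intensity plus a constant per array (SD of the difference over probes 0.0443 to 0.136); how the constants were chosen is unknown.

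Control spots and spots marked as outliers were left out, spots of a probe were averaged, and log2 intensity minus each array's 75th percentile was analysed. Probes with a value on all 6 arrays and well above background on at least 3 were kept. A gene is its brightest kept probe. Genotypes were compared with limma 3.58.1 in R 4.3.3, without covariates, 3 arrays against 3, and the number of arrays limits the precision. The fit was also run on simulated data with the same spread for every probe, unlike these data, so that run says little about its behaviour here. Of 55681 probes, 26762 had 1 RefSeq symbol by accession and 28919 none.

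The members and lists were chosen with earlier results of these data known. Every member is reported; from each list at most 4 genes with the lowest p are named, plus genes whose role is needed to read a member, and per member the 3 most correlated genes. Some genes of the lists are counted but not reported by name here. Cell type lists covered hepatocytes and 9 other kinds of cell. The normexp alternative used median spot signals in place of mean signals, because the files hold no mean signal. Alternatives were other scalings, filters and probe rules, a replicate block, the Gapdh spread as a covariate and leaving out arrays.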

Additional observations from a re-analysis of the deposited data

How the results depend on the processing

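Klb, Angptl8 and Pdk4 stayed lower in the knockout under all 17 alternatives and Fgf21 under the 16 that gave it a value (its probe was not above background on all 6 arrays), with ranges of -1.50 to -0.84, -2.89 to -0.91, -1.79 to -0.88 and -2.14 to -0.82 (limma adjusted p from 0.0047 to 0.732 over the 4 genes). Leaving out each array in turn gave -1.50 to -1.13 for Klb, -2.89 to -1.66 for Angptl8, -1.79 to -1.14 for Pdk4 and -0.97 to -0.38 for Angptl4. These 4 genes passed the adjusted threshold only without WT replicate 3, so members passing ranged from 0 to 4 and probes from 0 to 13123. Elsewhere 1 probe passed with normexp, 2 with probes above background on all arrays and 7 genes with probes averaged. Signs turned for Fgfr4 (0.054) and Pdk2 (0.19) under quantile normalisation, for Fgfr4 (0.28) and Angptl4 (0.21) with WT replicates 1 and 2 left out (the spread then comes from the knockouts alone), and for Fgfr4 (0.012) with the Gapdh covariate; the cause was not tested. Medians over all genes moved from -0.49 to -0.36 with median scaling, -0.21 with quantile normalisation, -0.38 with normexp, -0.08 without a filter and -0.14 with the Gapdh covariate. Of genes at an unadjusted p below 0.05, 80.6% were lower, against 69.5% with median scaling and 42.6% without a filter. Same-numbered arrays did not deviate together (r = -0.130, 0.009 and -0.043, against -0.204 to 0.216 for differently numbered arrays). With 3 arrays per genotype this could not settle whether the numbers pair the mice. With the replicate number as a block, 0 members and 0 probes passed (4615 probes at an unadjusted p below 0.05, against 4861 without it). Fgf21 is limited by a signal near background in knockout replicate 3.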

Other observations

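The TGATGCAAT element found in the Fgf21 and Angptl8 promoters was in windows of 52 named genes, of which 15 passed the filter on dim features. At an unadjusted limma p below 0.05, 3 of the 15 had lower knockout values and 0 had higher ones, against 16.6% and 3.98% of all genes, with 0 past the adjusted threshold; the median difference was -0.47, against -0.49 over all measured genes. Of the 3, Fgf21 and Angptl8 are the genes that supplied the motif, so 1 of the other 13 was lower, Slc17a1, a phosphate transporter of kidney and liver, which read 4.15, 3.75 and 2.84 in WT and 2.11, 1.76 and 1.98 in the knockout. Other genes of the 15 were Aars, the alanyl-tRNA synthetase (difference -0.28, SE 0.37), and Nupr1, a stress-induced nuclear protein (-0.67, SE 0.36). The motif and this set were chosen after the promoters had been read, and no test was made of the set.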
